A study of Mus musculus with 2 samples.

Results

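Genes of the acute phase and of leukocyte recruitment, 10 in all, were followed in mouse epididymal fat: the acute phase proteins Saa3, Hp, Lcn2 and Serpina3n, the chemokines Ccl7, Ccl8, Cxcl1 and Cxcl12, and Nfkbia and Icam1, both induced by the transcription factor NF-kB. They were chosen as every probe set whose annotated symbol is one of these 10 names, which gave 14 probe sets out of 22690 on the array and 10 genes out of 12394. Nfkbia had 4 probe sets, Cxcl12 had 2, and each of the other 8 genes had 1.

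Acute phase proteins are secreted proteins whose production changes when a tissue meets injury or infection. Liver is their classical source, but fat cells also make several of them, haptoglobin and serum amyloid A3 in particular. Chemokines are small secreted proteins that attract leukocytes through receptors on those cells; CC and CXC chemokines are named after the spacing of their first cysteines. NF-kB switches on many chemokine and adhesion genes and also its own inhibitor, which is why Nfkbia serves as a feedback gene. In obese fat these genes are widely read as signs of inflammation, whereas the mice here ate standard chow.

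The study compared male PPARβ/δ knockout mice, whose disrupted gene Ppard encodes a nuclear receptor for fatty acids, on a mixed Sv129/C57BL/6 background and 12 weeks old, with wild-type males labelled 129S1/SvJae and 12 to 16 weeks old. The design text calls the wild-type mice littermates, so the sources differ on strain, and the part of strain and age in any difference cannot be told apart from that of genotype. Epididymal white fat of 5 animals per genotype was pooled as RNA, and each pool was hybridised to 1 array, the RNA being made with TRIzol and labelled with biotin. Animals thus have no values of their own, no spread between animals can be computed, and no p-value is given anywhere; differences describe these 2 arrays, and the number of arrays limits the precision.

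Values are intensities made with GCRMA, and a difference is log2 of the knockout pool minus log2 of the wild-type pool. An intensity of 32 (log2 of 5) was used as a floor in place of detection calls, and a gene was kept when a probe set of it reached the floor in at least 1 pool, which left 6533 genes. The brightest kept probe set on average stood for a gene. Pairs of intensities are given with the wild-type pool first. Among kept genes, a 2-fold or larger difference was counted as lower in knockout for 597 (9.14%) and as higher for 893 (13.7%), and their median difference was -0.084. Among 2137 genes with several kept probe sets, the SD of the difference between probe sets of a gene had a median of 0.25, which is part of the technical error only. Of the RNAs spiked in as controls, only dap, cre and bioD were read here. The 6 probe sets of dap differed by -1.03 to -0.57 and the 8 of cre and bioD by 0.016 to 0.21. A single control RNA could thus differ between the arrays by nearly as much as several genes below.

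The tissue check held for fat but showed other tissue as well. Adiponectin (Adipoq), which defines fat cells, was at 10259 in wild type and 8030 in knockout. All 13 adipocyte markers with a probe set passed the floor; 12 were lower in the knockout pool, with a median difference of -1.16 and a summed intensity of 65633 in wild type and 42470 in knockout. Germ cell markers of the testis, 17 of 17 kept and all higher in the knockout pool, had a summed intensity of 3933 in wild type and 72581 in knockout. Epididymis markers were in both pools at sums of 50516 and 60265, with 9 of 10 kept ones higher in the knockout pool. Ppard itself was below the floor in both pools, at 6.58 and 6.27, and so gave no check of the labels.

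Of the genes that could be compared, Hp, Serpina3n, Saa3, Ccl8, Cxcl12 and Nfkbia were lower in the knockout pool and Lcn2 was higher, while Ccl7, Cxcl1 and Icam1 were too dim. Across all 10 genes with no floor, 8 were lower, 5 of them at least 2-fold, and none was 2-fold higher; over all 12394 genes treated the same way, 4.97% were at least 2-fold lower, 7.89% at least 2-fold higher and 58.3% were lower by any amount. The median over the 10 genes was -0.88, against -0.073 over all genes. By probe set, 12 of 14 were lower, against 59.6% of the 20393 probe sets that name a single gene. In bulk RNA, fewer cells of a type and less RNA per cell cannot be told apart, and the part that the germ cell and epididymis transcripts had in these differences was not tested.

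The floor kept 7 of the 10 genes. Ccl7, Cxcl1 and Icam1 were below it in both pools. Ccl8 and Saa3 passed through the wild-type pool alone, so they could only be lower in the knockout pool. Of the 5 genes at or above the floor in both pools, Hp, Serpina3n and Cxcl12 were at least 2-fold lower, as were 482 (8.84%) of the 5452 genes of the whole array that met that condition, whereas Nfkbia and Lcn2 were not.

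**Figure D1:**
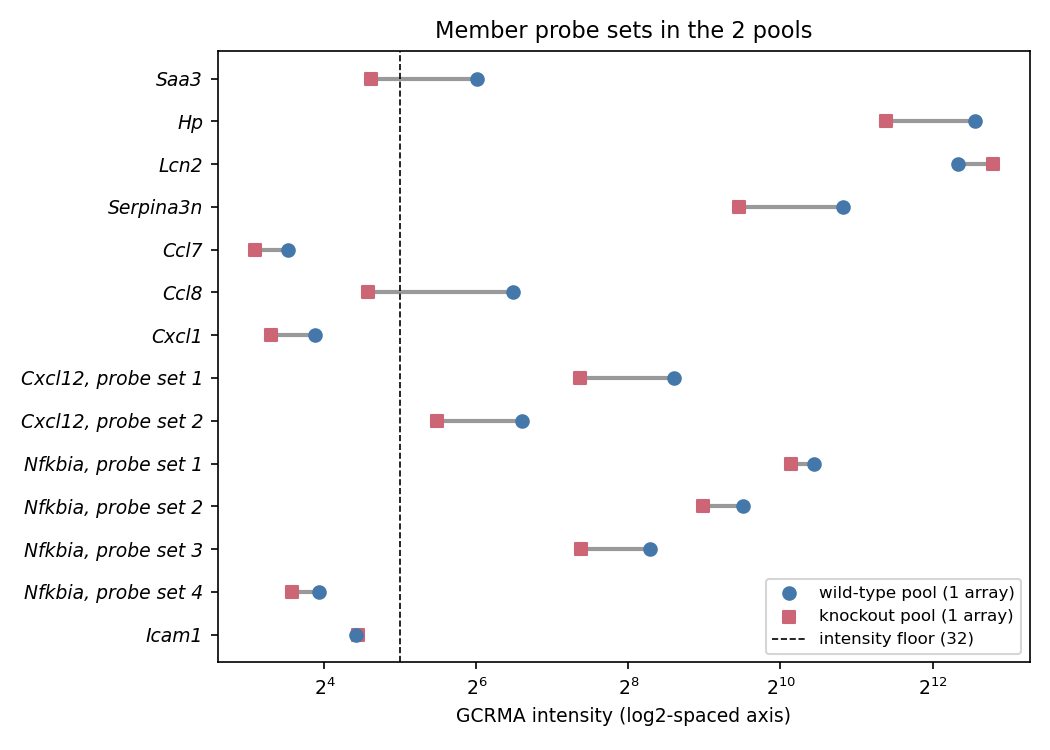
GCRMA intensity (horizontal axis, log2-spaced) of the 14 probe sets of the 10 genes in the wild-type pool (circles) and the knockout pool (squares), 1 array each; the dashed line is the floor of 32 and bars join the values of a probe set. The square lies left of the circle in 12 probe sets, and 4 probe sets lie wholly below the floor.

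Short stretches of promoter are printed for 4 of these genes. Those of Cxcl1 and Nfkbia hold an NF-kB consensus, that of Saa3 a loose C/EBP-type motif and that of Ccl8 a TATA box. The 250 bases before the start of each gene were searched on both strands, and RefSeq promoter windows (GRCm38.p6) were at hand for 8 of the 10 genes, all but Hp and Ccl7. Capitals mark the match.
Cxcl1, chr5:90891162-90891195, + strand, NF-kB consensus: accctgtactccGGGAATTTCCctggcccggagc
Nfkbia, chr12:55492655-55492688, - strand, NF-kB consensus: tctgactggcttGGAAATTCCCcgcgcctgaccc
Saa3, chr7:46715756-46715787, - strand, C/EBP-type motif: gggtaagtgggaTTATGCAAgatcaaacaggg
Ccl8, chr11:82115141-82115170, + strand, TATA box: ttccctgctcccTATAAAaggcagattaga

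The NF-kB consensus was found in Cxcl1, from 71 to 62 bases before the start, and in Nfkbia, from 29 to 20 bases before it, and in 3.90% of the 32851 promoter windows in the table. In Cxcl1 the match also reads on the other strand 1 base further on. The C/EBP-type motif, TTNNGNAA, is loose: 36.8% of all windows hold it, and so did Saa3, Serpina3n, Lcn2 and Icam1. Saa3 held 4 such matches, of which the one closest to the start is shown. The STAT motif TTCNNNGAA, present in 7.02% of windows, was found in Icam1. The box TATAAA, present in 12.4%, was found in Ccl8, from 32 to 27 bases before the start. These matches describe letters only: the 2 genes with the NF-kB consensus were at -0.58 (Cxcl1, below the floor in both pools) and -0.30 (Nfkbia), and nothing about binding in these samples follows.

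Of the acute phase proteins, Hp, Serpina3n and Saa3 were lower in the knockout pool and Lcn2 was not. Hp encodes haptoglobin, which binds free haemoglobin. Its intensity was 6058 in wild type and 2688 in knockout, a 2.25-fold difference (-1.17 on the log2 scale), and 6.21% of kept genes had a lower difference. Serpina3n, a secreted inhibitor of serine proteases, was at 1813 and 699, which is 2.59-fold lower in the knockout pool (-1.38). A lower difference than that of Serpina3n was found for 3.80% of kept genes. Both genes therefore lay in the lower tail of the array while being far above the floor in both pools. Serpina3n belongs to a cluster of near copies on chromosome 12, and the sources used here do not say which copies its probe set can also capture.

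Saa3, the serum amyloid A made outside the liver in mice, was much closer to the floor. It was at 64.1 in wild type and 24.5, under the floor, in knockout, so it was at least 2.00-fold lower (-1.39 as measured, -1.002 with the knockout value raised to the floor). Its neighbours on chromosome 7 that encode the liver serum amyloids, Saa1, Saa2 and Saa4, were all below the floor in both pools, between 6.89 and 11.8. The 2-fold call of Saa3 thus sits on the threshold once the floor is applied.

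Lcn2 went the other way. It encodes lipocalin 2, which binds bacterial iron carriers and is made by fat cells, neutrophils and epithelia, the epididymis among them. Its intensity was 5164 in wild type and 7101 in knockout, 1.37-fold higher in the knockout pool (0.46 on the log2 scale), less than 2-fold. Of kept genes, 75.9% had a lower difference. Among the values that moved with it, the epididymis markers had a median difference of 0.54, from -0.033 to 1.57; Lcn5 and Lcn8, lipocalins of the epididymis, were at 0.088 and 0.33. Neutrophil markers could hardly be followed: 8 of 9 with a probe set, S100a8 and S100a9 among them, were below the floor in both pools, and Ltf, lactoferrin, was at 52.5 and 69.6. The part of epididymal RNA in the Lcn2 value was not tested.

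The other acute phase genes were mostly at background. Of 33 listed, 26 had a probe set; with no floor 16 were lower and 10 higher, 2 of them at least 2-fold lower (against 4.97% of all genes), and the median was -0.085. Of these, 16 were below the floor in both pools; among the 10 kept, 2 of them by the wild-type pool alone, 7 were lower and 3 higher, with a median of -0.58. Orm1, the plasma carrier orosomucoid 1, was at 949 in wild type and 398 in knockout, a difference of -1.25. Serpina1b, an α1-antitrypsin, was at 419 and 14.0, at least 13.1-fold lower, but its probe set is of a kind that shares sequence with other genes, and the mouse has several near-identical copies. Lbp, the lipopolysaccharide binding protein, was at 488 and 290.1 (-0.75). Orm1, Lbp and Hp were thus lower together, by differing amounts. Ceruloplasmin (Cp), the copper carrier of plasma, was at -0.29, with a range of -1.65 to -0.29 over its 6 kept probe sets. Serpinf2, the plasmin inhibitor, had the highest difference of the list at 0.54. The metallothioneins Mt1 and Mt2, which bind metals and respond to glucocorticoids and cytokines, were at 0.13 and -0.41, less than 2-fold in opposite directions. Mt1 was read by a probe set of shared sequence. Of 10 hepatocyte markers, 8 were below the floor in both pools, albumin (Alb), Ttr, Apoa1 and Ahsg among them. The 2 kept were Serpina1b and Cyp2e1, which was bright at 7292 in wild type and 6505 in knockout, so these markers did not all read alike.

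Of the 4 chemokines, Ccl8 and Cxcl12 were well measured in at least 1 pool, and both were lower in the knockout pool. Ccl8, a CC chemokine that attracts monocytes and other leukocytes, was at 89.4 in wild type and 23.7, under the floor, in knockout. It was at least 2.79-fold lower (-1.91 as measured, -1.48 with the knockout value raised to the floor).

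Cxcl12, which retains and guides leukocytes and stem cells and is made by stromal cells, was read by a pair of probe sets. One was at 386 in wild type and 164 in knockout (-1.23), the other at 97.0 and 44.7 (-1.12). Both thus gave a fold just above 2, 2.35 and 2.17, at different brightness. Of its receptors, Cxcr4, the signalling receptor, was below the floor in both pools, at 17.0 and 11.05. Ackr3, a scavenging receptor that removes Cxcl12, was at 637 and 288, a difference of -1.14, read by a probe set of shared sequence. Ligand and scavenger thus had like differences.

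Ccl7 and Cxcl1 could not be compared. Ccl7, which also draws monocytes, was at 11.4 and 8.46, and Cxcl1, which draws neutrophils, at 14.7 and 9.85. All 4 values lie under the floor of 32, so their differences of -0.43 and -0.58 carry no fold. The receptors for these ligands were likewise dim in both pools: Ccr1 was at 13.2 and 10.8, Ccr2 at 27.5 and 18.6, Ccr3 at 7.34 and 6.68, and Cxcr2 at 21.4 and 20.5. The scavenger Ackr1, found on venous endothelium and red cells, was at 14.0 and 10.3. Of 21 chemokine receptors with a probe set, Ackr3 was the only one kept.

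Ccl8 lies in a cluster of CC chemokines on chromosome 11, in the order Ccl2, Ccl7, Ccl11, Ccl12, Ccl8 and Ccl1. Only Ccl8 and Ccl11 of these 6 passed the floor. Ccl11, eotaxin, which attracts eosinophils, was at 172 in wild type and 39.4 in knockout, 4.37-fold lower (-2.13), and it was above the floor in both. Ccl2, which draws monocytes into inflamed fat, was at 17.2 and 12.2. The cluster thus held 2 genes with large differences between 4 that were dim in both pools. In the cluster of CXC chemokines on chromosome 5 that holds Cxcl1, Pf4 alone of 6 genes with a probe set was kept. Pf4, a chemokine of platelets and macrophages, was at 182 and 31.6, at least 5.69-fold lower in the knockout pool. Cxcl2 and Cxcl5, which act on neutrophils as Cxcl1 does, were at 6.69 and 6.70 and at 8.16 and 8.29.

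Of 29 other chemokine ligands with a probe set, 23 were below the floor in both pools. Among the 6 kept, 5 were at least 2-fold lower, against 9.14% of all kept genes; Pf4 and Cxcl9 were kept by the wild-type pool alone and so could only be lower. Ccl6 and Ccl9, CC chemokines of myeloid cells, were at 442 and 124 (-1.83) and at 312 and 109 (-1.52). Cxcl9, induced by interferon gamma, was at 76.6 and 30.9, at least 2.39-fold lower. Ccl27a, a chemokine of epithelia, was at 18.7 (under the floor) in wild type and 35.2 in knockout, 1.10-fold higher or more, on a probe set of shared sequence. Over all 29 with no floor, 20 were lower and 9 higher, 5 at least 2-fold lower, and the median was -0.19. Ccl6, Ccl9 and Ccl11, the 3 ligands of the list measured above the floor in both pools, were thus all lower, while the list as a whole was mostly at background.

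**Figure D2:**
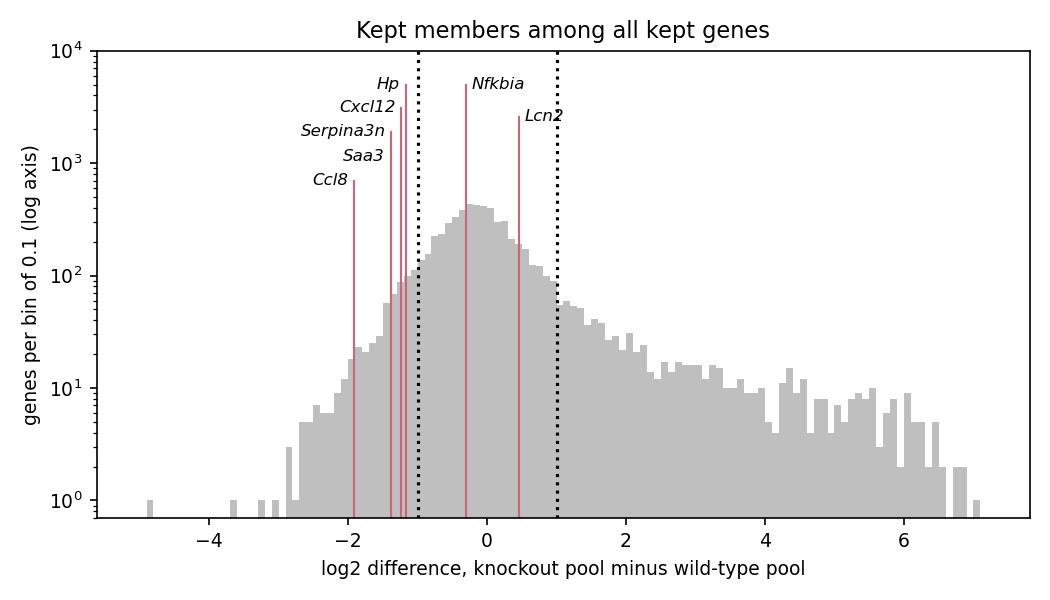
Log2 difference, knockout pool minus wild-type pool (horizontal axis), of the 6533 kept genes, as genes per bin of 0.1 (vertical axis, log scale); red lines mark the 7 kept genes of the set and dotted lines a 2-fold difference. Ccl8, Saa3, Serpina3n, Cxcl12 and Hp lie left of the lower dotted line, from -1.91 to -1.17, and Nfkbia and Lcn2 between the dotted lines at -0.30 and 0.46.

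The NF-kB feedback gene and the adhesion molecule differed by less than 2-fold or not measurably. Nfkbia encodes IκBα, which holds NF-kB in the cytoplasm and is rebuilt when NF-kB is active. Its brightest probe set, one of shared sequence, was at 1387 in wild type and 1123 in knockout (-0.30). A second was at 725 and 503 (-0.53), and another at 310.4 and 165 (-0.91). All 3 kept probe sets were lower in the knockout pool, and none of them by 2-fold. The remaining one was below the floor, at 15.2 and 11.9. Icam1, which leukocytes grip on endothelium through their integrins, was at 21.4 and 21.7, below the floor in both pools, so its level could not be compared.

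Other genes of NF-kB signalling differed in both directions. Of 25 with a probe set, 12 were kept, 8 lower and 4 higher, with a median of -0.39, and 1 was at least 2-fold lower and 1 at least 2-fold higher, shares no greater than the 9.14% and 13.7% of all kept genes. Tnfrsf1a, a receptor for tumour necrosis factor, was at 69.1 and 32.9 (-1.07), and Nfkbib, another inhibitor of NF-kB, was at 46.2 and 104.9 (1.18), on a probe set of shared sequence. Rela, the NF-kB subunit p65, was at 187 and 119 (-0.65). Receptor and subunit were thus lower while Nfkbib was higher. Tnf, Il6 and Il1b, the cytokines that drive acute phase genes, were below the floor in both pools; of 14 cytokines listed, 4 were kept. Csf1, the macrophage growth factor, was the lowest of these at 86.7 and 32.7 (-1.41), and Mif, macrophage migration inhibitory factor, the highest at 0.044.

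Genes of IL-6 and STAT3 signalling, the route that induces haptoglobin and Serpina3 proteins, were lower throughout. Of 12 with a probe set all 12 were lower with no floor (median -0.67), where 58.3% of all genes were lower. Il6 and Tyk2 among them were below the floor in both pools, and Il6ra and Socs3 were kept by the wild-type pool alone. As measured 2 of the 12 were at least 2-fold lower, against 4.97% of all genes, and 1 of the kept genes with dim values set to the floor. Il6st, the signal-transducing receptor subunit gp130, was at 1102 and 517 (-1.09). Socs3, the feedback inhibitor of this route, was at 47.4 and 21.8 on a probe set of shared sequence. The knockout value was under the floor, so Socs3 was 1.48-fold lower or more. The transcription factors Stat3, at 452 and 284, and Cebpb, at 1171 and 743, were at -0.67 and -0.66. Cebpd differed least of those kept, at -0.12. The receptor, the feedback gene and the transcription factors had negative differences, as Hp and Serpina3n did. Whether this route had a part in the values of Hp and Serpina3n was not tested.

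Adhesion molecules other than Icam1 were mostly dim. Of 15 listed, 6 were kept and all 6 were lower, where 55.5% of kept genes were lower. Among them Cd44 was kept by the wild-type pool alone and so could only be lower. As measured 2 were at least 2-fold lower, against 9.14% of kept genes, but only 1 with dim values set to the floor. Pecam1, of endothelial junctions, was at 149 and 72.7 (-1.04), and Cd44, a hyaluronan receptor, at 35.8 and 14.1, at least 1.12-fold lower. Vcam1, which like Icam1 is induced on endothelium by NF-kB, was at 72.4 and 57.9 (-0.32), the least different of the 6 kept genes; its second kept probe set was at 0.46, so its direction is not settled.

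Values of cell type markers are given beside these genes. The lists differed in direction: germ cell markers and most kept epididymis markers, given above, were higher in the knockout pool. Of 18 macrophage markers 17 were kept, with a median of -0.78, 15 of them lower, and a summed intensity of 6104 in wild type and 5261 in knockout. That sum includes Aif1, which was higher in the knockout pool, at 104 and 1658 on a probe set of shared sequence. Csf1r, the macrophage growth factor receptor, was at 236 and 111. Of 13 endothelial markers with a probe set 10 were kept, 9 lower, with a median of -0.96 and sums of 1786 and 1015. Preadipocyte and fibroblast markers, the stromal cells that make Cxcl12, had a median of -0.72 over 10 kept genes, 7 of them lower, and sums of 8757 and 6091. Over all kept genes, 55.5% were lower. The wild-type pool alone kept 4 of the macrophage markers and 2 of the preadipocyte ones, which could only be lower. With dim values set to the floor the medians of these 2 lists were -0.64 and -0.33. Lymphocyte markers were below the floor in both pools in 9 of 11 cases. The 2 kept were Ighm, at 321 and 76.7 (-2.06), and Jchain, at 69.3 and 53.1 (-0.38). The 7 mesothelial markers had a median of -0.015, with 3 higher and 4 lower. The differences of Hp (-1.17), Serpina3n (-1.38) and Cxcl12 (-1.23) were near the adipocyte median (-1.16). The median of the stromal list was less negative, at -0.72. Single adipocyte markers were unlike: the bright Adipoq (-0.35), Fabp4 (-0.20) and Lpl (-0.36) differed less than the median. Of the 13, 8 were at least 2-fold lower, against 9.14% of kept genes. The difference of Ccl11 (-2.13), above the floor in both pools, was below the adipocyte, macrophage, endothelial and preadipocyte medians. It lay within the range of single adipocyte markers, from -2.87 (Lep) to 0.96 (Aqp7). The macrophage marker Cd163 was at -2.61 as measured, and at -1.42 with its knockout value raised to the floor. Endothelial markers ranged from -1.59 to 0.012, and preadipocyte and fibroblast markers from -1.31 to 0.68. The part of cell composition was not tested.

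**Figure D3:**
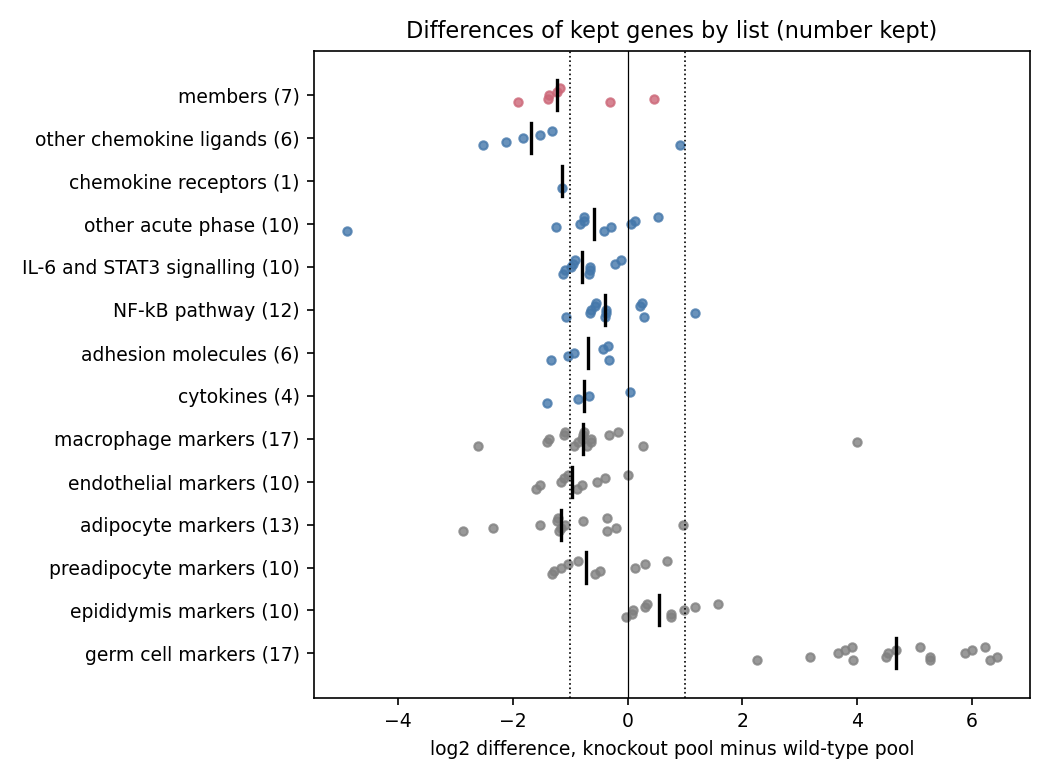
Log2 difference, knockout pool minus wild-type pool (horizontal axis), of each kept gene (points) in the set, in 7 related gene lists and in 6 cell marker lists, with the number kept in brackets; black bars are medians and dotted lines a 2-fold difference. The set has its median at -1.23 and germ cell markers theirs at 4.67.

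The differences of the kept genes held their sign under every one of the 9 other settings tried, but most settings could not alter them. For Hp, Serpina3n and Lcn2, each read by a single probe set far above the floor, only 2 kinds of setting could change the value. These were centring all differences on their median and removing the trend with intensity. Setting dim values to the floor could not reverse Ccl8 or Saa3, which were kept by the wild-type pool alone. Hp ranged from -1.17 to -1.07, Serpina3n from -1.38 to -1.22, Cxcl12 from -1.23 to -1.09, Saa3 from -1.39 to -1.002 and Ccl8 from -1.91 to -1.48. Lcn2 stayed between 0.46 and 0.54. The range of Nfkbia, from -0.58 to -0.15, was wide for its size: the lower end came from averaging its kept probe sets and the upper end from removing the trend with intensity.

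**Figure D4:**
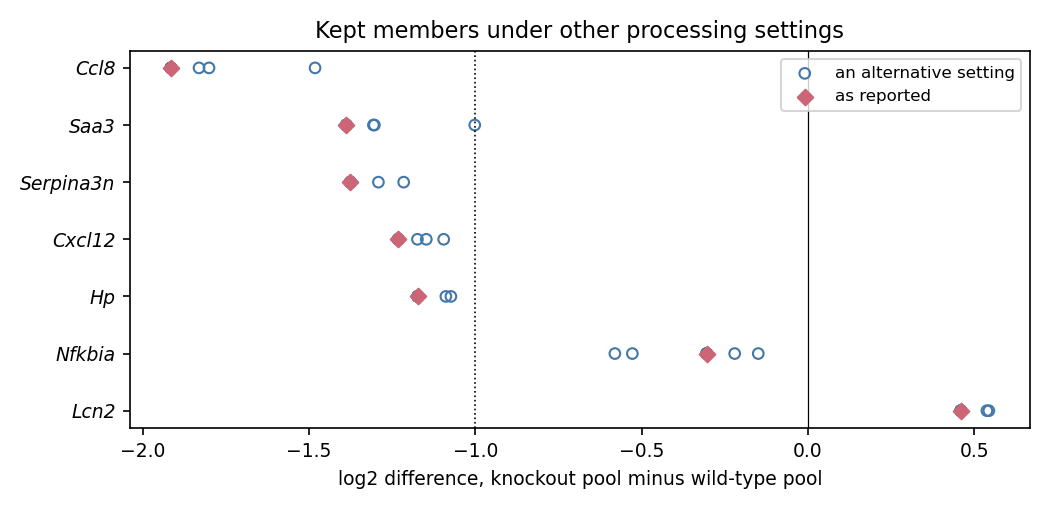
Log2 difference, knockout pool minus wild-type pool (horizontal axis), of the 7 kept genes as reported (diamonds) and under 9 other processing settings (open circles, some overlapping); the dotted line is a 2-fold lower level. Ccl8, Saa3, Serpina3n, Cxcl12 and Hp stay at or left of the dotted line, and Lcn2 stays right of 0.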

How the data were processed

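Epididymal fat RNA of 5 males per genotype was pooled and hybridised to 1 array per pool. The authors deposited probe set intensities made with GCRMA 2.20, per the submitters' processing notes; they run from 1.91 to 36322 and are thus linear. GCRMA normalises quantiles and shrinks dim values; the sources used here do not state on which arrays it was run together. The array named in the design text is larger than the one annotated here, whose table has 22690 probe sets.

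From these values log2 was taken. Of the probe sets, 20393 named 1 gene (20364 matched to GRCm38.p6 records by Entrez identifier), 691 several and 1606 none; only the first kind was used. Genes were kept at log2 of at least 5 in 1 pool and read by the kept probe set of highest mean. Members, lists and tests were chosen with earlier results of these data known. Named beside the members are list genes at the extremes or at least 2-fold different, receptors of the chemokines, and others (among them Lbp, Cp, Mt1, Mt2, Rela, Stat3, Cebpb, Ccl2, Cxcl2, Cxcl5, Lcn5 and Lcn8) chosen after their values were seen. The counting of folds was run on simulated data with large differences in bright probe sets and little noise. That run checks the counting only, and not differences close to 2-fold or to the floor. Python 3.11.15, pandas 2.3.3 and statsmodels 0.14.6 were used.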

Additional observations from a re-analysis of the deposited data

How the results depend on the processing

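No paired analysis was possible because each genotype is 1 pool, and leaving out a replicate is likewise impossible. Of 63 recomputed values of the kept genes, 60 moved by less than 0.25, the median SD between probe sets of a gene. Many of these could not move, since most settings leave a gene with a single probe set as it was. With dim values set to the floor Ccl8 was at -1.48 and Saa3 at -1.002, and with probe sets averaged Nfkbia was at -0.58. The number of the set at least 2-fold lower was 5 under all 9 settings. Among the 5 were Ccl8 and Saa3, which the main floor kept through the wild-type pool alone. Over the same settings the share of all genes at least 2-fold lower ran from 4.97% (no floor) to 10.3% (floor of log2 6). Those shares also stand beside the list counts below. Floors choose which genes count: with no floor the medians were -0.88 (the set), -0.19 (other chemokine ligands), -0.085 (other acute phase genes), -0.12 (chemokine receptors), -0.35 (adhesion molecules) and -0.13 (cytokines), against -1.23, -1.68, -0.58, -1.14, -0.68 and -0.77 with it. A floor of log2 4 gave -0.23 for chemokine ligands and -0.46 for receptors, and a floor of log2 6 gave -0.42 for adhesion molecules, which were at -0.39 with dim values set to the floor. Changing the floor changes which genes are counted; setting dim values to the floor keeps the genes and changes their values. Counts of genes at least 2-fold lower changed by 1: NF-kB genes from 1 to 2 with no floor or a floor of log2 4 and to 0 when centred or with the intensity trend removed; IL-6 and STAT3 genes from 2 to 1 with a floor of log2 6, without probe sets of shared sequence or with dim values at the floor; adhesion molecules from 2 to 1 with a floor of log2 6, when centred, detrended or with dim values at the floor; acute phase genes from 2 to 1 and receptors from 1 to 0 without probe sets of shared sequence, and receptors to 0 when detrended. The signal over background limits Ccl7, Cxcl1 and Icam1, which cannot be compared.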
